A study of Homo sapiens with 6 samples.

Results

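MYC, its dimerization partner MAX, genes of ribosome biogenesis and 2 genes of polyamine synthesis were examined as one group of 43 genes in NB4 cells. The genes were chosen by name from their known roles, and no measured value is part of that rule, but earlier results of these data were known at the choice. Transcripts of 42 of the 43 matched the annotation by identifier, out of 52992 genes summed in all, and BOP1 is not analysed here. All 42 passed the filter on low counts, with means of 494 to 88182 estimated counts per sample.

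NB4 is an established human acute promyelocytic leukemia line. RNA-sequencing was performed on 6 samples in 3 groups of 2 replicates. LacZ samples, with the genotype label WT, carried a small guide RNA (sgRNA) against a bacterial gene that human cells lack. The sg1 and sg5 samples, labeled ARID1A-deficient, carried either of a pair of sgRNAs against ARID1A, which belongs to the chromatin remodeler SWI/SNF. Per the methods of the study, all 3 groups, controls included, expressed Cas9 stably and received the sgRNA on a doxycycline-inducible lentivirus. They were sorted for both fluorescent reporters. Isolation of single-cell clones is not described there, so cells with different edits may be mixed in a sample. Doxycycline was given at 1 µg/ml for 7 days and withdrawn before RNA was isolated. Nothing in the labels says whether replicates were separate cultures, so that p-values measure only the spread between these samples.

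Each sample held 46131178 to 54843745 estimated counts. The granule genes MPO, PRTN3, AZU1, CTSG and CD33 of the labeled line were expressed, with 630217 to 848367 counts for MPO, whereas ELANE was near 0 at 1 to 9 counts. All 5 had fold changes below 0 in both sgRNAs, with medians of -0.17 in sg1 and -0.36 in sg5, and CTSG reached -0.50 and -0.54, but 0 passed the threshold. Of 11 eosinophil, basophil and mast cell markers, 7 were tested and all 7 had fold changes below 0 in both sgRNAs. Over all ARID1A-deficient samples EPX, PRG2 and HDC passed the threshold, as did the megakaryocyte marker ITGA2B. Only ITGA2B and GP1BA were tested among 9 megakaryocyte and erythroid markers. GP1BA had a log2 fold change of 0.005 in that comparison, with an adjusted p of 0.998 by edgeR. The eosinophil, basophil and mast cell markers summed to 125 and 134 CPM, counts scaled to library size, in LacZ and 54.2 to 61.7 in the ARID1A-deficient samples, and the part of these marker differences in the results below was not tested. In bulk RNA, fewer cells of a type and less RNA per cell cannot be told apart. Of 8 mature neutrophil markers, LTF, LCN2 and FCGR3B were at or near 0, whereas MMP9 held 7756 to 23896 counts, with log2 fold changes of -0.80 in sg1 and -1.23 in sg5 (adjusted p of 0.686 and 0.223 by edgeR). Of 5 lymphoid markers, MS4A1 and CD3E were at or near 0, whereas CD3D held 244 to 366 counts and CD79A 233 to 551, with log2 fold changes of 0.93 and 0.80 for CD79A (adjusted p of 0.410 and 0.418 by edgeR). Summed CPM of these lists was 367 to 461 in LacZ and 158 to 288 in ARID1A-deficient samples for neutrophil markers, and 10.6 to 12.6 and 16.2 to 18.5 for lymphoid markers. The neutrophil sum is nearly all MMP9. Other neutrophil markers tested held 221 to 356 counts (CXCR2), 2 to 21 (MMP8) and 2 to 20 (S100A12), and 0 passed the threshold. CXCR2 and MMP8 had fold changes below 0 in both sgRNAs, whereas those of S100A12 were 1.25 in sg1 and 0.89 in sg5. Hemoglobin genes (HBB, HBA1, HBA2) were at 0. ARID1A mRNA itself was 155 and 191 CPM in LacZ, 211 and 191 with sg1 and 124 and 145 with sg5. In log2 units sg1 differed from LacZ by 0.22 (SE 0.14) and sg5 by -0.36 (SE 0.14), with adjusted p of 0.993 and 0.661 by edgeR, so that mRNA does not check the labels.

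MYC is a transcription factor that binds DNA as a heterodimer with MAX, most tightly at the E-box CACGTG, and drives growth in many leukemias. Among its best known targets are genes for making ribosomes. RNA polymerase I transcribes the ribosomal RNA precursor in the nucleolus, box C/D and box H/ACA small nucleolar ribonucleoproteins (snoRNPs) modify it, the small subunit processome and later factors cut and fold the 40S part, and a separate set of factors builds the 60S part. ODC1 and SRM make polyamines and are classical MYC targets outside the ribosome.

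The E-box was searched for in promoter windows of RefSeq (GRCh38.p14), each running from 250 bases before to 50 bases after a transcription start. CACGTG reads the same on both strands. Of the 43 genes, 36 had an entry and 16 of these (44.4%) held CACGTG in at least 1 window, against 12.2% of 11411 tested genes with an entry and 30.8% of 78 other ribosome biogenesis genes. By window the shares were 34% of 47 for the group, 7.26% over all promoters and 9.14% over promoters of tested genes. The median GC content was 64.7% in the group and 64% in tested genes. The sequences upstream of UTP20, NOP10, LYAR and NHP2 are shown because these genes had the widest gaps between replicates within both sgRNAs, as given further down. Each runs 5′ to 3′ on the strand of the gene and ends just before the RefSeq start or the start of the most abundant GENCODE transcript, whichever comes first, with CACGTG in capitals. UTP20 lies at chr12:101279855-101280104 (plus strand), NOP10 at chr15:34343178-34343386, LYAR at chr4:4290170-4290404 and NHP2 at chr5:178153968-178154135, these last on the minus strand.
UTP20: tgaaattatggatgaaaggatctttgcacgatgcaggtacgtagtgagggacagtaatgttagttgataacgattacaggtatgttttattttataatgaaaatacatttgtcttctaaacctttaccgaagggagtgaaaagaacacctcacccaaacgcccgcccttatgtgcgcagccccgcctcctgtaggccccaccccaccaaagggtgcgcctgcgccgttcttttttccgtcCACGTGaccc
NOP10: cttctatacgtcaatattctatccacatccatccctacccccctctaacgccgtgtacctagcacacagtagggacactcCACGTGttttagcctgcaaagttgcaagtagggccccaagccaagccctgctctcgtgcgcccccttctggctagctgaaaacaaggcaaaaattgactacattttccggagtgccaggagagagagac
LYAR: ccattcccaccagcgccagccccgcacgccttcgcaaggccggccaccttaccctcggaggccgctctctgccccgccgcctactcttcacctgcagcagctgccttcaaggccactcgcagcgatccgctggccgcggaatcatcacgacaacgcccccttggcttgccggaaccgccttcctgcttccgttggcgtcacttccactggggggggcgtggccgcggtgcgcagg
NHP2: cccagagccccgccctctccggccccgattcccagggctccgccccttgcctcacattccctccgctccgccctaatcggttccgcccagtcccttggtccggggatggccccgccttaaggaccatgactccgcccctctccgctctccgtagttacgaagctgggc
UTP20 held the E-box 10 bases before its RefSeq start. NOP10 held it 170 bases before the start, as shown, and again 11 bases before, which is inside the GENCODE transcript and not shown. The windows of LYAR and NHP2 shown here held none, but the window of a second LYAR start held 1. A match is a description of the letters and does not show binding.

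Levels were first compared between genes by TPM, a transcript abundance that accounts for length, summed over all transcripts of a gene, coding or not. NPM1, a nucleolar chaperone, had the highest level at a mean of 3481 TPM over the 6 samples. NCL (nucleolin) followed at 988 and NOP56, of the box C/D core, at 818, and MYC came next at 495. The lowest were UTP20 at 9.37, BMS1 at 14.7, both small subunit processome factors, and POLR1A, the largest RNA polymerase I subunit, at 18.4. NPM1 was the highest and UTP20 the lowest in every sample, with NPM1 between 3368 and 3721 TPM and UTP20 between 8.54 and 11.03. Together the 42 genes took 0.948% to 1.05% of all TPM.

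**Figure D1:**
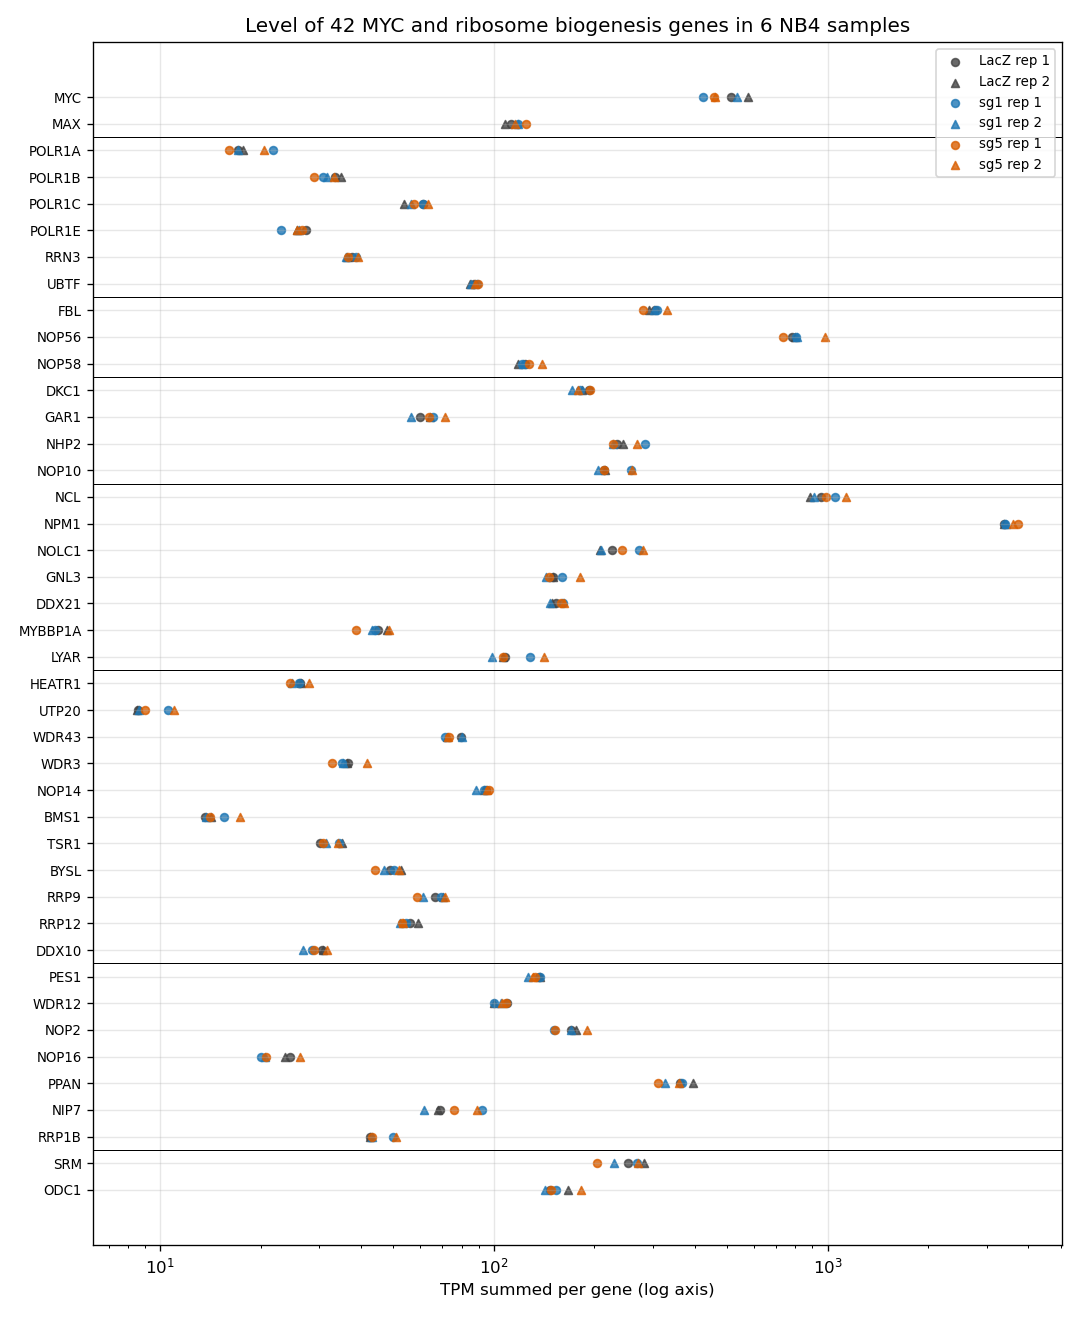
TPM summed per gene (log axis) for 42 genes in 6 samples, with color for the group and shape for the replicate, and lines between roles. The 6 samples of a gene lie close together beside the range between genes, from 9.37 TPM for UTP20 to 3481 TPM for NPM1.

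Genes of one particle were not at equal levels of summed RNA, which need not be coding mRNA. For NOP56 the processed transcripts NOP56-216, NOP56-213, NOP56-205 and NOP56-212 held 19.4%, 13.5%, 11.4% and 6.33% of its counts. NOP56 was 2.56 to 2.98 times the TPM of FBL, the methyltransferase of the box C/D core, whereas NOP58 was 0.39 to 0.45 times. In the box H/ACA core, NOP10 was 0.88 to 0.97 times the TPM of NHP2, DKC1 (dyskerin) 0.64 to 0.85 times and GAR1 0.23 to 0.28 times. MYC exceeded MAX 4.56 and 5.37 times in the LacZ samples, 3.61 and 4.52 times with sg1 and 3.67 and 3.98 times with sg5, with a narrow gap to LacZ in sg1. By CPM the ratios of LacZ replicate 1 and sg1 replicate 2 were 5.89 and 5.97, so that the groups overlapped on that scale.

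Whether the sgRNAs against ARID1A changed these genes was asked with edgeR's quasi-likelihood test, fitted over 18514 genes, with a call at a false discovery rate (FDR) of 0.1. In sg1 against LacZ, 0 of 42 passed, where 0.0378% of all genes did. In sg5 against LacZ, 0 of 42 passed (0.0972% of all genes), and in sg1 against sg5, 0 of 42 passed (0.0054% of all genes). With sg1 and sg5 pooled as ARID1A-deficient against LacZ, 0 of 42 passed (0.167% of all genes). At an unadjusted p under 0.05 the group also gave 0 of 42 in each of the 4 comparisons, against 4.15%, 7.47%, 1.38% and 7.21% of all genes. DESeq2 called 0 of 42 in each, against 0.627%, 1.09%, 0.027% and 1.43% of all genes.

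The fitted differences were small. Over the 42 genes, log2 fold changes ran from -0.21 to 0.22 in sg1 and from -0.21 to 0.36 in sg5, with SE of 0.10 to 0.18. The median was 0.03 in sg1 with 23 genes above 0, and 0.10 in sg5 with 36 above 0, and the medians over all genes tested were 0.00 and -0.01. Both comparisons share the LacZ samples. These medians rested on single libraries. Without sg1 replicate 1 the median in sg1 turned to -0.05 with 7 genes above 0, and without sg1 replicate 2 it was 0.08 with 35 above 0. The median in sg5 was 0.01 without sg5 replicate 2 and 0.20 without sg5 replicate 1, and the median difference of sg1 from sg5, -0.07, turned to 0.05 without sg5 replicate 2 and to 0.01 without sg1 replicate 2.

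**Figure D2:**
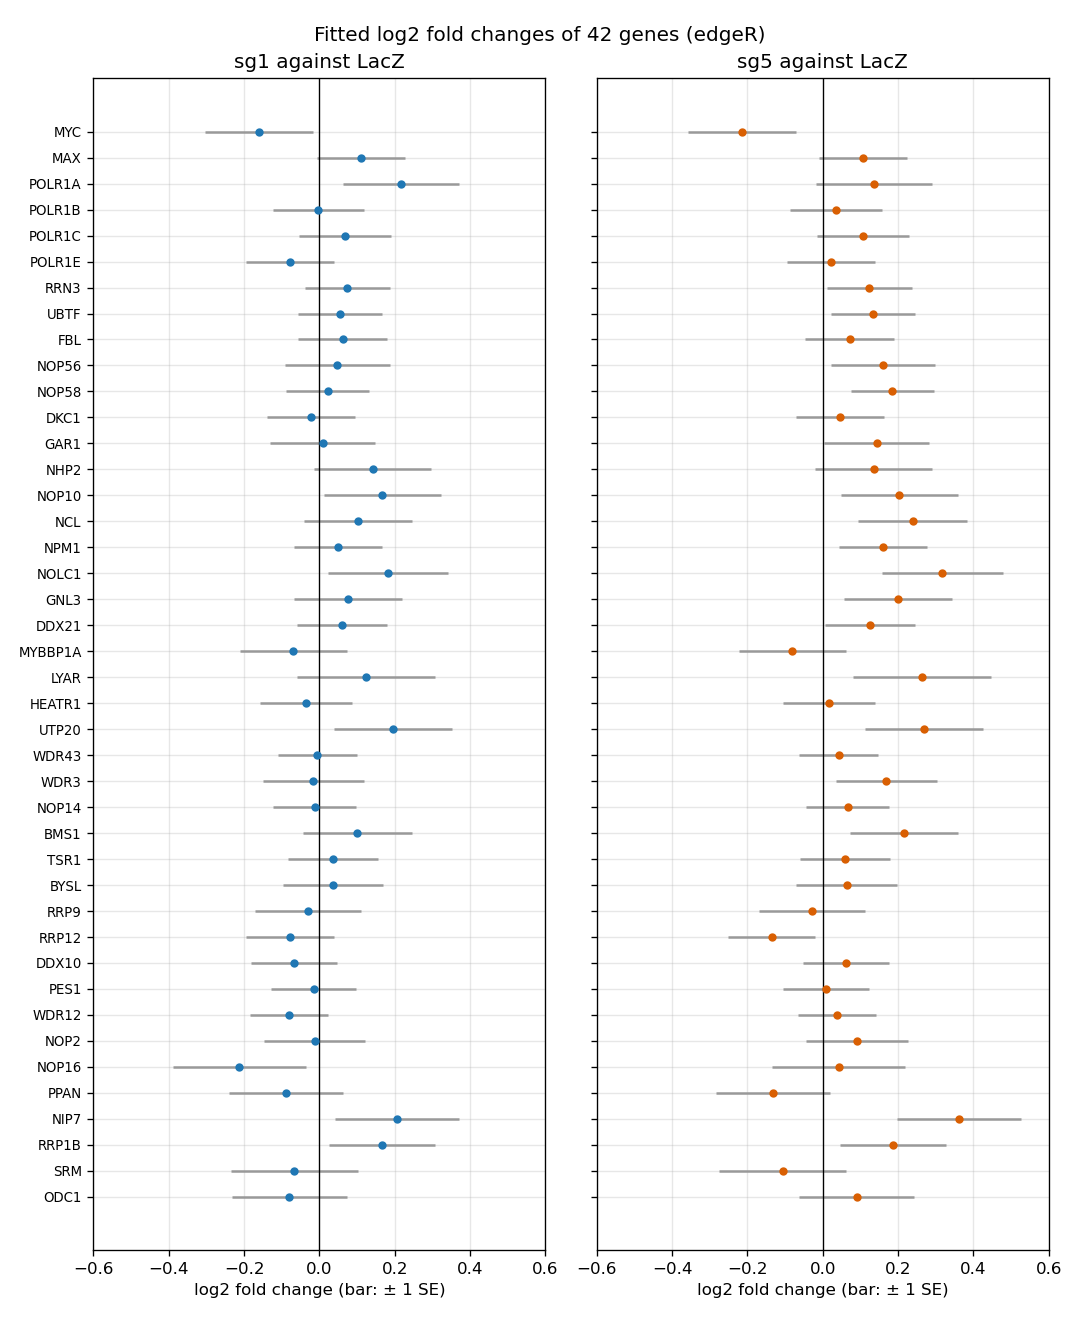
Log2 fold changes against LacZ fitted by edgeR for sg1 (left) and sg5 (right), with bars of 1 SE either way, n = 2 samples per group. Most points in sg1 lie within 1 SE of 0, the points in sg5 lean to the right with a median of 0.10, and none passed an FDR of 0.1.

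MYC (ENSG00000136997) had the lowest fold change of the group in sg5. Its level was 835 and 955 CPM in LacZ, 716 and 887 with sg1, and 759 and 784 with sg5. Both sg5 samples lay below both LacZ samples, whereas sg1 overlapped them. The log2 fold change was -0.16 (SE 0.14) in sg1 and -0.21 (SE 0.14) in sg5, with adjusted p of 0.993 and 0.729 by edgeR. MAX was 142 and 127 CPM in LacZ, 141 and 149 with sg1, and 150 and 139 with sg5, and the groups overlapped. Its log2 fold change was 0.11 (SE 0.12) in both sgRNAs.

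Of the wider MYC network outside the group (MAD family repressors, MNT, MGA, MLX proteins, Miz-1), 11 of 12 genes were tested and 0 were called in any of the 4 comparisons. MXD4, which encodes a MAX partner that represses E-box genes, was 85.2 and 92.0 CPM in LacZ and 120 and 97.8 in sg1, and had an unadjusted p of 0.0507 with an adjusted p of 0.993 by edgeR. ZBTB17, which encodes Miz-1, was 44.5 and 50.1 CPM in LacZ and 39.2 and 35.7 in sg5, with both sg5 samples below LacZ and an adjusted p of 0.634 by edgeR.

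For RNA polymerase I and its initiation factors the median log2 fold change over 6 genes was 0.06 in sg1 and 0.12 in sg5. POLR1A was 127 and 138 CPM in LacZ, 172 and 136 with sg1, and 130 and 161 with sg5. In each sgRNA 1 sample stood above LacZ and the other lay within its range. Its fold change in sg1, 0.22 (SE 0.15), was the highest of the 42 genes in that comparison, with an unadjusted p of 0.194 and an adjusted p of 0.993 by edgeR. UBTF, which opens ribosomal DNA chromatin for RNA polymerase I, was 203 and 199 CPM in LacZ, 219 and 198 with sg1, and 220 and 221 with sg5.

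In the box C/D core, NOP58 was 139 and 134 CPM in LacZ, 141 and 136 with sg1, and 148 and 162 with sg5. Both sg5 samples lay above both sg1 samples, and its difference of sg1 from sg5, -0.16 (SE 0.11), had the smallest unadjusted p of the group in that comparison, 0.178, with an adjusted p of 1 by edgeR. NOP56 was 491 and 541 CPM in LacZ, 542 and 526 with sg1, and 514 and 639 with sg5, where 1 sample stood apart. NOP56-216, annotated as a processed transcript and not as protein coding, took 28.6% of these counts in sg1 replicate 1 and 25.6% in sg5 replicate 2. Its share was 13.3% to 16.5% in the other samples. NOP56-201, a protein-coding transcript, took 14.2% and 10.9% in these 2 samples, against 19.0% to 27.9% in the others. Coding transcripts were not tested apart. In the box H/ACA core, which guides pseudouridine formation, NOP10 was 63.8 and 64.4 CPM in LacZ, 80.7 and 63.1 with sg1, and 65.4 and 82.1 with sg5. NHP2 was 113 and 119 CPM in LacZ, 144 and 112 with sg1, and 113 and 142 with sg5. In both genes 1 sample of each sgRNA was high and the other was at the level of LacZ.

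Nucleolar proteins had the highest medians by role, at 0.08 in sg1 and 0.20 in sg5 over 7 genes. NOLC1 (ENSG00000166197, GRCh38 chr10:102152176-102163871, plus strand), a scaffold for snoRNPs, was 521 and 483 CPM in LacZ, 649 and 490 with sg1, and 574 and 678 with sg5. Both sg5 samples lay above LacZ, with a log2 fold change of 0.32 (SE 0.16) and an adjusted p of 0.688 by edgeR. NCL was 1417 and 1412 CPM in LacZ, 1676 and 1363 with sg1, and 1553 and 1784 with sg5. LYAR was 118 and 119 CPM in LacZ, 147 and 110 with sg1, and 119 and 165 with sg5. NPM1 was 1729 and 1680 CPM in LacZ, 1762 and 1764 with sg1, and 1882 and 1928 with sg5. It differed from the others in its even replicates, and its log2 fold change of 0.05 (SE 0.12) in sg1 and 0.16 (SE 0.12) in sg5 did not pass.

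For the small subunit processome and 40S assembly, the median over 11 genes was -0.01 in sg1 and 0.06 in sg5. UTP20, a large scaffold of the processome, was 57.9 and 58.5 CPM in LacZ, 75.0 and 58.3 with sg1, and 62.2 and 78.1 with sg5, with log2 fold changes of 0.20 (SE 0.16) and 0.27 (SE 0.16). BMS1, a GTPase of the processome, was 81.8 and 86.9 CPM in LacZ, 97.2 and 83.7 with sg1, and 85.9 and 110 with sg5. WDR3 was 99.9 and 92.7 CPM in LacZ, 97.8 and 92.6 with sg1, and 95.8 and 121 with sg5. Here 1 sample of sg5 was high in all 3 genes, while sg1 replicate 1 was high in UTP20 and BMS1 and within LacZ in WDR3.

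For 60S assembly, the median over 7 genes was -0.02 in sg1 and 0.04 in sg5. NIP7 (ENSG00000132603, GRCh38 chr16:69337996-69343111, plus strand), a late pre-60S factor, was 81.3 and 75.1 CPM in LacZ, 103 and 77.1 with sg1, and 89.8 and 111 with sg5. Both sg5 samples lay above both LacZ samples, and its log2 fold change of 0.36 (SE 0.16) was the highest of the 42 genes, with an unadjusted p of 0.0560 and an adjusted p of 0.680 by edgeR. NOP16 was the lowest in sg1, at 9.08 and 8.82 CPM against 10.5 and 10.3 in LacZ, with 9.38 and 11.97 in sg5. Its log2 fold change in sg1 was -0.21 (SE 0.18). For polyamine synthesis, SRM (spermidine synthase) was 206 and 237 CPM in LacZ, 228 and 194 with sg1, and 173 and 237 with sg5. ODC1 (ornithine decarboxylase) was 245 and 261 CPM in LacZ, 258 and 220 with sg1, and 233 and 304 with sg5. In both genes the replicates of each sgRNA lay on either side of a LacZ sample.

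Counts of genes whose groups did not overlap were read against the share over all genes tested. For these patterns no share was taken among genes of similar counts. Both sg1 samples lay above both LacZ samples in 2 of 42 genes, NPM1 and RRP1B (16.7% of all genes), and below in 3, DDX10, NOP16 and WDR12 (17.4%). Both sg5 samples lay above both LacZ samples in 15 of 42, or 35.7% (20.2% of all genes), among them NCL, NOLC1, LYAR, NIP7 and UTP20, and below in 2, MYC and RRP12 (21.9%). All 4 ARID1A-deficient samples lay above LacZ in the same 2 genes as for sg1, NPM1 and RRP1B (9.72% of all genes), and below in 0 (10.4%). Between the sgRNAs, both sg1 samples lay below both sg5 samples in 8 of 42 (10% of all genes), among them NOP58, NPM1 and UBTF, and above in 0 (11.7%).

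Replicates within each sgRNA were then compared. Over the 42 genes, sg1 replicate 1 was above replicate 2 by a median of 0.15 on the log2 scale, with 38 genes above 0, and sg5 replicate 2 was above replicate 1 by 0.22, also with 38 above 0. LacZ replicate 2 differed from replicate 1 by 0.01, with 23 above 0, and over all genes tested these medians were -0.02, -0.01 and -0.01. On the first principal component of all genes, sg1 replicate 1 and sg5 replicate 2 stood apart from the other 4 samples, at 34.3 and 46.8 against -30.3 to -11.3. This division came from the data and not from the labels, and both LacZ samples lie on one side of it, so that each sample is given apart and none were averaged along it. These 2 samples also had the highest total counts, 54490092 and 54843745, against 46131178 to 53712098 in the others, and the part of depth was not tested. The share of counts in mitochondrial genes did not follow the division, at 4.45% in sg1 replicate 1 and 5.72% in sg5 replicate 2 against 4.67% to 6.22% in the other 4.

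In the group of 42, both samples lay above all other 4 samples in 23 genes, or 54.8% (18.6% of all genes), and below all of them in 0 (19.2%). Among the 7369 genes averaging 1000 counts or more, a limit added after the data were seen, the share above was 35.1%. That limit was applied to this pattern alone, and the other shares given here are over all genes tested. By TPM in place of CPM the count was 15, against 13.8% of all genes. The higher replicate was replicate 1 in sg1 and replicate 2 in sg5 in 35 of 42 (30.3% of all genes), and the opposite held in 1, MAX (34%). Relative to the LacZ mean, the median log2 difference in CPM over the 42 genes was 0.07 in sg1 replicate 1, -0.04 in sg1 replicate 2, 0.01 in sg5 replicate 1 and 0.18 in sg5 replicate 2. On the TPM scale these medians were 0.01, -0.05, -0.04 and 0.09, beside -0.07, -0.01, -0.03 and -0.10 over all genes.

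**Figure D3:**
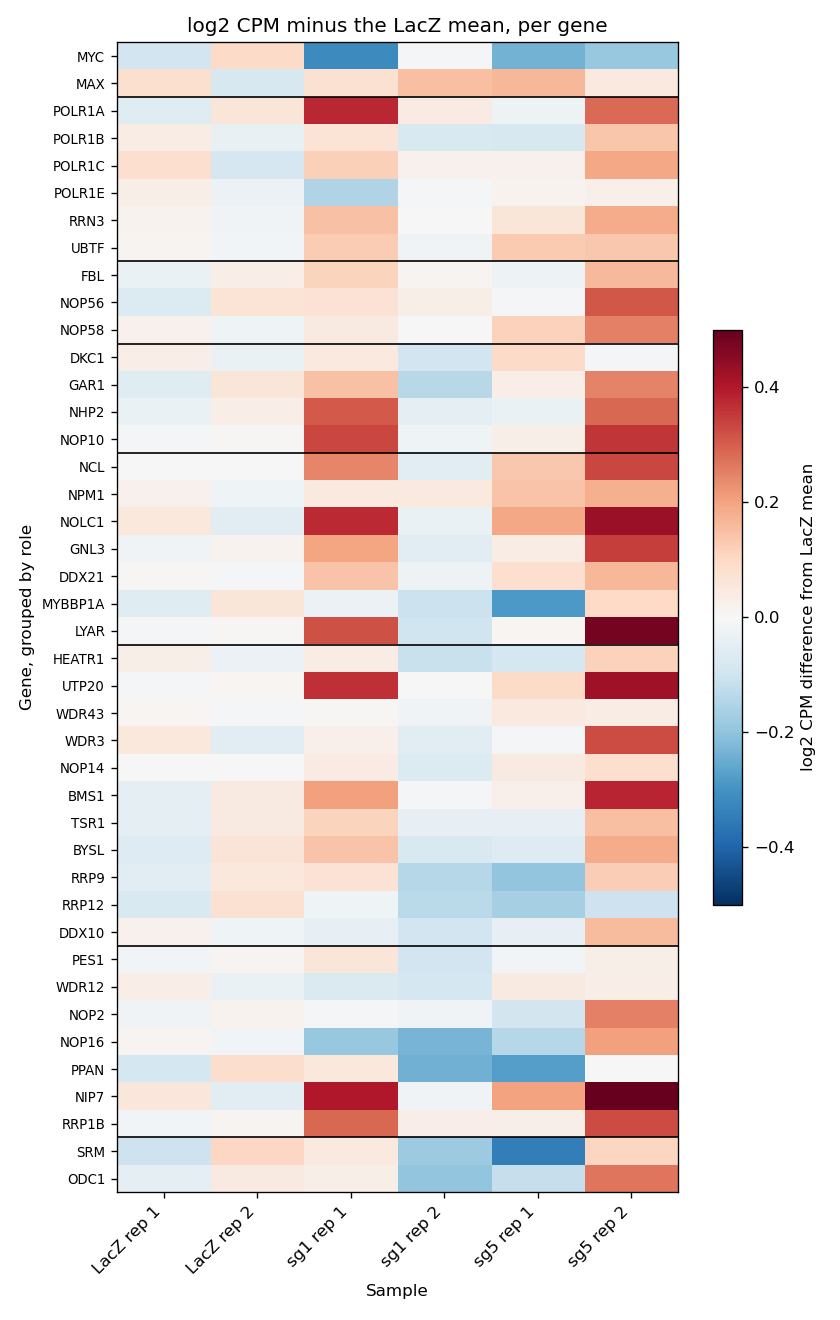
Log2 CPM of each gene minus its LacZ mean in the 6 samples, with lines between roles in the order of the text and red for higher values. The columns of sg1 replicate 1 and sg5 replicate 2 are red in most rows, with the MYC row blue in sg1 replicate 1 and in both sg5 samples.

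By role, the division appeared in 4 of 6 RNA polymerase I genes, 2 of 3 box C/D genes, 3 of 4 box H/ACA genes, 5 of 7 nucleolar proteins, 6 of 11 small subunit genes and 3 of 7 of the 60S genes. It appeared in 0 of 2 for MYC and MAX and in 0 of 2 for polyamine synthesis, where SRM in sg1 replicate 1 and ODC1 in sg1 replicate 1 lay below LacZ replicate 2. Beside these counts, each from few genes, stand 18.6% of all genes and 35.1% of those averaging 1000 counts or more. Among the box C/D genes with the division, NOP56 was counted over all its transcripts, and the non-coding NOP56-216 took its largest shares in sg1 replicate 1 and sg5 replicate 2. LYAR had a fold of 1.34 between the replicates of sg1 and of 1.38 between those of sg5. UTP20 had folds of 1.29 and 1.26, NOP10 of 1.28 and 1.26, and NHP2 of 1.28 and 1.25. Between the LacZ samples, UTP20 and NOP10 differed by less than 1 CPM. MYC moved otherwise, with a fold of 0.81 in sg1 and of 1.03 in sg5. Of the 16 genes with CACGTG in a promoter window, 10 showed the division, against 11 of the 20 genes with an entry and no CACGTG.

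Counts of calls were also made with either side of the division left out. Such fits keep 1 sample per sgRNA and 1 residual degree of freedom, from the LacZ pair, on samples set apart by measured values, so that they are no test of the groups. UTP20, LYAR, NOP10 and NHP2 were also picked by their gaps along this division, so that their direction here follows from that choice. With sg1 replicate 2 and sg5 replicate 1 left out, 9 of 42 genes were called in sg1 (16% of all genes), with MYC lower and NIP7, UTP20, LYAR, NOLC1, NOP10, NHP2, POLR1A and RRP1B higher. In sg5, 16 of 42 were called (22.6% of all genes), all higher and without MYC. Between the sgRNAs 0 were called (1.58%), and 12 in ARID1A-deficient against LacZ (26.5%). With sg1 replicate 1 and sg5 replicate 2 left out, 0 of 42 were called in sg1 (2.2% of all genes), 1 in sg5 (SRM, lower, 4.09%), 0 between the sgRNAs (1.12%), and 2 in ARID1A-deficient against LacZ (SRM and PPAN, lower, 4.2%).

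Genes of the same pathways outside the group were described from lists. Of 140 tested in 6 lists, 0 were called by edgeR or DESeq2 in any of the 4 comparisons, and at an unadjusted p under 0.05 there were 0 in sg1, 2 in sg5 (UTP3 and ZBTB17), 1 between the sgRNAs (GTPBP4) and 2 over all ARID1A-deficient samples (PCNA and UTP3), where all genes gave 4.15%, 7.47%, 1.38% and 7.21%. The division appeared in 6 of 14 other RNA polymerase I genes, 21 of 34 other small subunit processome genes, 19 of 43 other large subunit genes and 13 of 23 MYC targets outside ribosome biogenesis, but in 0 of 11 genes of the MYC network, beside 18.6% of all genes and 35.1% of those averaging 1000 counts or more. The 6 of the RNA polymerase I list were TWISTNB, CD3EAP and POLR2E, POLR2F, POLR2K and POLR2L, which are named for RNA polymerase II and are not particular to RNA polymerase I. UTP3, of the processome, was 38.4 and 38.3 CPM in LacZ, 52.5 and 38.7 with sg1, and 46.2 and 62.2 with sg5, where edgeR gave an unadjusted p of 0.0243 and an adjusted p of 0.636 for sg5. SLC7A5, an amino acid transporter and MYC target, went the other way, at 1500 and 1800 CPM in LacZ, 1192 and 1627 with sg1, and 1465 and 962 with sg5.

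Proliferation genes followed the same division. All 15 that were tested, among them MKI67, TOP2A and the MCM helicase subunits, were higher in sg1 replicate 1 and sg5 replicate 2 than in the other 4 samples. The share was 18.6% over all genes and 35.1% among those averaging 1000 counts or more. The summed level of the 15 genes was 5840 and 6008 CPM in sg1 replicate 1 and sg5 replicate 2. It was 4557 and 4718 in LacZ and 4799 and 4832 in the remaining samples of sg1 and sg5. PCNA, the sliding clamp of DNA replication, was 330 and 293 CPM in LacZ, 477 and 323 with sg1, and 374 and 475 with sg5. The part of proliferation in the levels of the ribosome biogenesis genes was not tested.

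**Figure D4:**
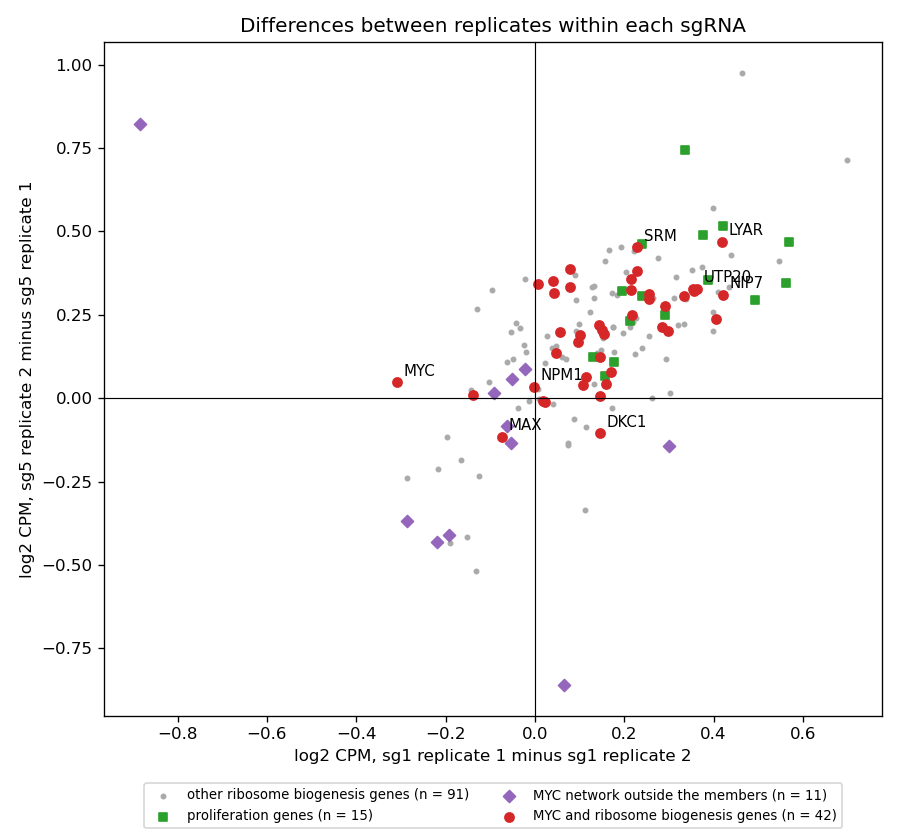
Difference in log2 CPM between replicates within sg1 (horizontal, replicate 1 minus 2) and within sg5 (vertical, replicate 2 minus 1), with 1 point per gene. In the group, 35 of 42 points lie in the upper right (30.3% of all genes tested), as do all 15 proliferation genes. MYC lies left of 0 and MAX lies left of and below 0.

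Some values depend on how reads were divided. Another gene with at least 10 counts overlaps 18 of the 42 genes in the annotation, among them PPAN with the read-through PPAN-P2RY11, TSR1 with SRR, and MAX with FNTB. NHP2 is overlapped by RMND5B and NIP7 by COG8, both on the opposite strand, and the study states no use of strand. Pseudogenes named for BMS1 held counts equal to 18.5% of its own and those for RRN3 22.6%, against 0.1% for NPM1. Overlap was counted over whole genes, introns included and on either strand, and need not mean shared reads. The values of these genes may be less certain than those of the rest, which was not tested.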

How the data were processed

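RNA of 6 NB4 samples was sequenced as 100-base pairs per the methods of the study. Per the file headers, the deposited tables hold Kallisto estimated counts and TPM per transcript, which the authors scaled by effective length. The submitters' processing notes name hg19, kallisto and DESeq2. The human transcript set is not given in the sources used here. Of 196354 transcripts, 181857 (92.6%) matched GENCODE 29 (GRCh38) by identifier, with 95.4% to 95.5% of counts. They were summed to 52992 genes and rounded, and unmatched transcripts were left out.

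edgeR 4.0.16 (R 4.3.3) was run with TMM factors, filterByExpr (minimum count 10), robust quasi-likelihood fits on all 6 samples with group as the only term, and Benjamini-Hochberg adjustment over 18514 genes. The SE was derived from the F statistic. CPM used TMM library sizes, and log2 CPM a prior count of 2. DESeq2 1.42.0 was an alternative. Functions were tested on simulated data. Joins, motif search and plots used Python 3.11.15. Promoter sequences and their positions were taken from RefSeq (GRCh38.p14), and other gene models from GENCODE.

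The genes and lists were chosen with earlier results of these data known, so the group was described by counts and medians beside those of all genes. Values in every sample are given for MYC, MAX, genes past the threshold, the 3 smallest p in each comparison, the 4 widest replicate gaps in both sgRNAs, and the 3 highest and lowest TPM. From the other lists, genes past the threshold and up to 2 with the smallest p could be named. UBTF, SRM and ODC1 were given by sample after their values were seen. The 6 genes of the RNA polymerase I list with the division were also named after their values were seen.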

Additional observations from a re-analysis of the deposited data

Results flagged for a closer look

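UBTF, which opens ribosomal DNA chromatin for RNA polymerase I, had 1 sample apart from the others, relative to their range, among the 4 ARID1A-deficient samples. Its level was 198 CPM in sg1 replicate 2 and 219 to 221 CPM in the other 3, a gap of 0.933 of the whole range, above Dixon's 95% critical value for 4 samples. The LacZ samples were at 203 and 199 CPM. The gap was not wide in itself: the sg1 replicates of UBTF differed by 0.145 on the log2 scale, beside a median of 0.148 over the 42 genes. All 42 genes were examined in this way, and chance flags about 1 in 20 genes. The 1 flag among 42 genes is below that rate.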

How the results depend on the processing

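With 2 samples per group and SE of 0.10 to 0.18, log2 differences of the size fitted here could not be told from 0. The number of genes called stayed at 0 of 42 in each of the 4 comparisons under DESeq2, RLE factors, no low-count filter, a mean of at least 50 counts, a length offset, only the groups compared, an FDR of 0.05 and each single replicate left out. Without single replicates, the median log2 fold change in sg5 ran from 0.01 (0.0064, without sg5 replicate 2) to 0.20 (without sg5 replicate 1), and that of sg1 against sg5 from -0.17 (without sg5 replicate 1) to 0.0496 (without sg5 replicate 2), with -0.15 without sg1 replicate 1. The median in sg1 ran from -0.05 (without sg1 replicate 1) to 0.08 (without sg1 replicate 2), and that of sg1 against sg5 was 0.01 without sg1 replicate 2. The sign changes to -0.05 and to 0.01 were smaller than 0.083, the pooled SD between replicates of the group median. The change of sg1 against sg5 to 0.0496 without sg5 replicate 2 was larger than that SD. By TPM the count of genes with sg1 replicate 1 and sg5 replicate 2 above the other 4 samples was 15 in place of 23.

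With sg1 replicate 2 and sg5 replicate 1 left out together, 9 of 42 genes were called in sg1, 16 in sg5 and 12 in ARID1A-deficient against LacZ, with a median of 0.20 in sg5. With sg1 replicate 1 and sg5 replicate 2 left out together, 0, 1 and 2 were called, with a median of 0.0129 in sg5. Over the 16 genes named by rule and 4 comparisons, 1058 of 1088 values kept their call, and the other 30 were called only in the first of these fits. SRM and PPAN, the genes called in the second, are not among the 16. The sign differed with neither value called in 73.

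The labels do not say what the replicate numbers E1 and E2 stand for, so no pairing was assumed. Deviations of same-numbered samples from group means correlated at 0.07 (LacZ and sg1), 0.01 (LacZ and sg5) and -0.21 (sg1 and sg5) over 18514 genes, and at -0.08, 0.38 and -0.55 over the 42 genes. With a replicate block, 0 of 42 genes were called in each comparison, with medians of 0.03 in sg1, 0.10 in sg5, -0.07 in sg1 against sg5 and 0.07 in ARID1A-deficient, and 1, 1, 0 and 3 of all genes were called in place of 7, 18, 1 and 31. A crossed block, added after the data were seen, also called 0 of 42, with 59, 157, 2 and 194 of all genes.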
